A study of Mus musculus with 2 samples.

Results

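The genes described here are 9 myosin light chain genes and the kinase of skeletal muscle that phosphorylates the regulatory ones. The regulatory light chains are Mylpf, Myl2, Myl9 and Myl12a. The essential light chains are Myl1, Myl3, Myl4, Myl6 and Myl6b, and the kinase gene is Mylk2. All 10 genes were chosen by name, and all were found among 55536 annotated genes. Together they have 71 annotated transcripts. The libraries hold total RNA of gastrocnemius, the large calf muscle, from adult females of 8 to 10 months. The labelled strain is a cross of 5xFAD, which carries human transgenes and serves as a model of Alzheimer's disease, with CAST, a wild-derived strain. In 5xFAD mice the transgenes are driven by the neuronal Thy1 promoter. There is 1 group of 2 libraries, numbered as biological replicates 1 and 2, and both carry 1 donor identifier, so they may or may not be separate animals. Each library was made from 300 ng of RNA with ERCC spike-in RNAs added. No other genotype, strain, muscle or age was analysed here, so the values are levels in this muscle and the spread between 2 libraries, which may be technical.

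Each myosin heavy chain carries 1 essential and 1 regulatory light chain on the lever arm behind its motor domain. Skeletal muscle fibres use fast forms (Mylpf and Myl1) or slow forms that they share with the heart ventricle (Myl2 and Myl3), while smooth muscle and non-muscle cells use Myl9, Myl12a and Myl6. When calcium rises, calmodulin activates the kinase encoded by Mylk2, which phosphorylates a serine near the start of the regulatory light chain and so increases the force of fast fibres at low calcium. Myosin phosphatase, made of a catalytic and a targeting subunit, removes the phosphate.

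The start of the coding sequence of the 4 regulatory light chains is shown because it holds the site on which the kinase acts. Capitals mark 4 codons, for serine or threonine, serine, asparagine and valine, found in the annotated coding sequence. The first 75 coding bases of the transcript numbered 201 of each gene (GENCODE M21, build mm10) read as follows.
Mylpf-201: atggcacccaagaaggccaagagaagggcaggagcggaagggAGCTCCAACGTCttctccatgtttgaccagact
Myl2-201: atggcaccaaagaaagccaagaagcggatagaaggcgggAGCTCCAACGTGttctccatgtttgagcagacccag
Myl9-201: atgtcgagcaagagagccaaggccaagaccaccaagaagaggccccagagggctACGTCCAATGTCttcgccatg
Myl12a-201: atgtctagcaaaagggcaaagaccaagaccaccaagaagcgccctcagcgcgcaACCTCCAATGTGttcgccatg
The serine in the middle of the capitals is codon 16 in Mylpf, codon 15 in Myl2 and codon 20 in both Myl9 and Myl12a, counting the start codon as 1. Ahead of it, the sarcomeric genes Mylpf and Myl2 have a further serine codon, and Myl9 and Myl12a have a threonine codon. A search of the first 40 codons of Myl1, Myl3, Myl4, Myl6 and Myl6b found no such run of codons. The printed runs span chr7:127211761-127212932 (Mylpf, plus strand), chr5:122101027-122101820 (Myl2, plus strand), chr2:156778545-156778619 (Myl9, plus strand) and chr17:70996806-70996880 (Myl12a, minus strand), with introns left out. Over the whole coding sequence, Mylpf and Myl2 were 69.6% identical, Myl9 and Myl12a 85.7%, and Mylpf and Myl9 63.5%.

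The 2 forms made from Myl1 are shown because most of the transcript results turn on them. The long form starts at a distal exon and the short form at a proximal exon, 9789 bases apart, and each also has an internal exon that the other lacks. Capitals mark the coding bases found in that form alone, and the 20 bases in lower case are shared (build mm10, minus strand of chromosome 1).
Myl1-201, long form: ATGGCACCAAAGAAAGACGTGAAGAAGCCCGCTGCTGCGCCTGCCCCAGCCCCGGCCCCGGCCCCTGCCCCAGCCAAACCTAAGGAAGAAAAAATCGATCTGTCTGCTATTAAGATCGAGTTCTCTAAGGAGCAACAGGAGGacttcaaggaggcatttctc
Myl1-202, short form: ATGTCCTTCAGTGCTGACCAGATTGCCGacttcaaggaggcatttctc
The long form has 142 coding bases of its own and 188 codons in all, and the short form has 28 bases of its own and 150 codons. The exons of the long form alone lie at chr1:66944792-66945143 and chr1:66934246-66934273. The exons of the short form alone lie at chr1:66935276-66935354 and chr1:66934518-66934542. The long form is also known as MLC1f and the short form as MLC3f, and the added start of the long form is known to reach the actin filament.

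Levels are given as TPM, the relative abundance of transcripts in a library, which corrects for transcript length and so allows genes of 1 library to be set side by side. The deposited tables hold 2 estimates made by different programs, called the first and the second quantifier here. Values are those of the first unless stated, means have the SD of n = 2 libraries beside them, and there is no comparison between groups to test. Library 1 had 35594289 expected counts and library 2 had 34541905. The genes together held 1.70% of gene TPM in library 1 and 2.11% in library 2. Of the TPM of 22015 nuclear protein-coding genes they held 4.31% and 4.69%, and of all gene counts 0.872% and 0.966%. All 10 genes were detected at 1 TPM or more in both libraries, and 8 were detected at 5 TPM or more. Defining genes of skeletal fibres were abundant, with Acta1, skeletal actin, at 16962 and 19000 TPM, while smooth muscle, endothelial, fibroblast and macrophage markers summed to 57.9, 27.7, 130 and 8.58 TPM in library 1 and to 68.3, 29.2, 144 and 7.91 TPM in library 2. In tissue RNA, fewer cells of a type and less RNA per cell cannot be told apart.

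**Figure D1:**
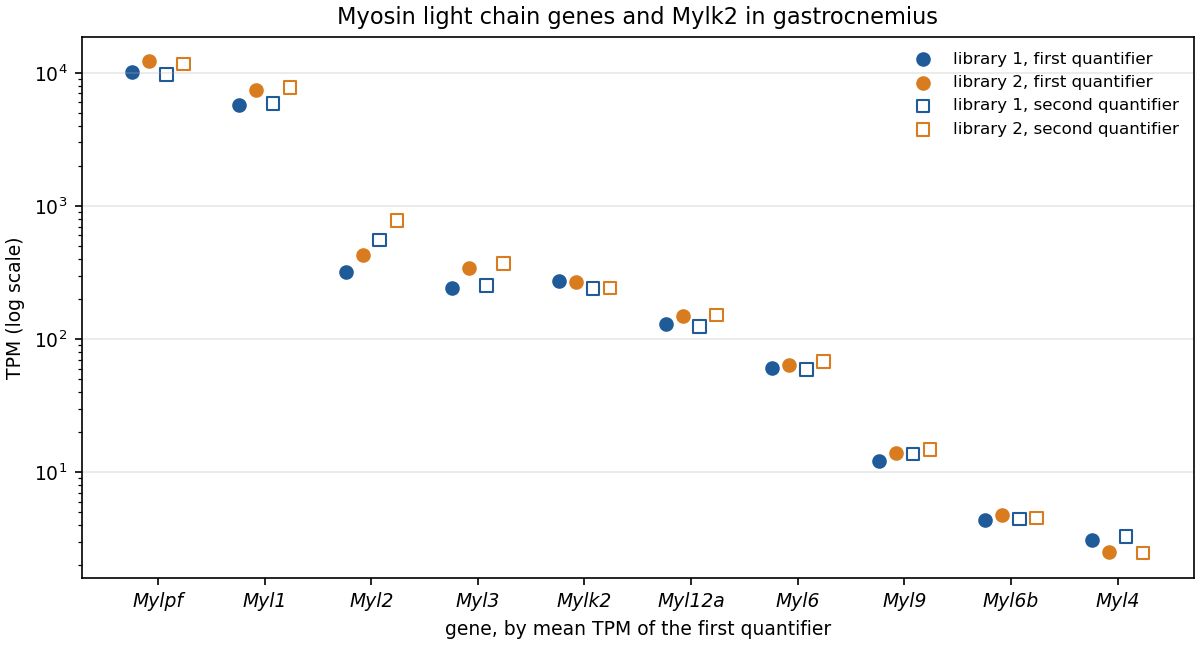
TPM on a log axis (y) of the 9 light chain genes and Mylk2 (x, by mean TPM), 1 point per library and quantifier, with filled circles for the first quantifier and open squares for the second. Mylpf and Myl1 stand more than 10 times above every other gene in the first quantifier, and Myl2 is the gene whose squares stand farthest above its circles.

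Among the regulatory light chains, fast Mylpf (chr7:127208890-127214298, plus strand) had 10080 TPM in library 1 and 12184 TPM in library 2 (11132 ± 1487), and ranked 7 among nuclear protein-coding genes in both. Slow Myl2 (chr5:122100951-122113472, plus strand) had 321 and 427 TPM (374 ± 74.3). Within a library, the fast gene was far above the slow gene, and the spread between libraries was small beside that distance. The log2 ratio of Mylpf over Myl2 was 4.97 in library 1 and 4.84 in library 2 (4.90 ± 0.10). The second quantifier gave a smaller log2 ratio of Mylpf over Myl2, 4.13 and 3.91, because its Myl2 level was 1.73 and 1.82 times that of the first, at 555 and 775 TPM.

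That Myl2 difference was followed into its transcripts, in TPM and in counts. Coding transcripts of Myl2 summed to 204 and 306 TPM in the first quantifier and to 205 and 299 TPM in the second, and with coding transcripts alone the log2 ratio of Mylpf over Myl2 was 5.08 and 4.77 in the first and 5.13 and 4.93 in the second. The non-coding transcript Myl2-210, of 467 bases, had 118 and 120 TPM in the first and 342 and 413 TPM in the second. The gene's counts differed less than its TPM, with 4781 and 5687 expected counts in the first quantifier and 5205 and 6204 in the second. Transcripts without a coding sequence held 27.5% and 20.5% of Myl2 counts in the first quantifier and 62.5% and 61.5% in the second. The similar coding TPM of the quantifiers thus did not rest on similar counts. The second quantifier placed its coding reads on shorter transcripts, Myl2-206 and Myl2-209, of 476 and 473 bases, and listed the full transcript Myl2-201, of 662 bases, at 0 TPM. The first quantifier gave Myl2-201 62.7% and 71.3% of the gene's TPM. The deposited values therefore do not settle which Myl2 transcripts were present.

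The regulatory light chains of smooth muscle and non-muscle myosin were lower. Myl12a (chr17:70993656-71002878, minus strand), which serves non-muscle myosin, had 130 and 150 TPM (140 ± 14.7). Myl9 (chr2:156775420-156781658, plus strand), the regulatory chain of smooth muscle, had 12.1 and 13.9 TPM (13.0 ± 1.31). The 2 ranges do not overlap, so Myl12a stood above Myl9 in both libraries. Of the stretches of 101 bases in Myl12a transcripts, 13.1% also occur in transcripts named Myl12b, another non-muscle regulatory chain. Reads can thus be divided between them in more than 1 way. Of the 2 gene identifiers named Myl12b, 1 overlaps Myl12a on the same strand and had 8.30 and 12.6 TPM. How much of the sharing comes from that overlap was not tested. Summed over both identifiers, Myl12b had 31.4 and 40.3 TPM in the first quantifier and 17.7 and 16.7 TPM in the second. Myl12a had 124 and 152 TPM in the second. Myl12a overlaps Myom1, a gene of the M band of the sarcomere with 594 and 560 TPM, on the opposite strand. The libraries were made with a directional kit, but how strand was used in counting is not stated in the sources, so reads of Myom1 counted for Myl12a cannot be told apart.

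Of the 6 smooth muscle markers, 2 stood near Myl9, 1 above it and 3 below it. Acta2, actin of smooth muscle, had 13.4 and 14.8 TPM, and Tagln, which binds it, had 11.9 and 14.7 TPM. Smtn, a smooth muscle cytoskeletal gene, was the highest at 24.1 and 30.0 TPM. Myh11, the smooth muscle heavy chain, had 6.32 and 6.46 TPM, and Lmod1, a leiomodin of smooth muscle, had 1.45 and 1.64 TPM. Cnn1, a calponin of smooth muscle, was below 1 TPM in both libraries, at 0.650 and 0.790. Their part in the Myl9 level was not tested.

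Among the essential light chains, fast Myl1 (chr1:66924295-66945404, minus strand) had 5719 TPM in library 1 and 7457 TPM in library 2 (6588 ± 1229), and ranked 11 among nuclear protein-coding genes in both. Slow Myl3 (chr9:110741861-110769798, plus strand) had 240 and 341 TPM (291 ± 71.0). The log2 ratio of Myl1 over Myl3 was 4.57 and 4.45 (4.51 ± 0.09), and 4.55 and 4.39 in the second quantifier, so here both estimates gave the same distance within 0.1. The slow genes Myl2 and Myl3 made up 3.43% and 3.76% of sarcomeric light chain TPM in the first quantifier and 4.91% and 5.57% in the second.

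Heavy chains showed the same order of fast over slow. Myh4, the fastest fibre type's heavy chain, had 10634 and 12336 TPM, Myh1 and Myh2, the heavy chains of other fast fibres, averaged 979 ± 150 and 543 ± 23.9 TPM, and Myh7, the slow heavy chain, had 230 and 330 TPM. The log2 ratio of the 3 fast heavy chains over Myh7 was 5.71 and 5.40 (5.56 ± 0.22). Library 2 had the lower fast over slow log2 ratio for the regulatory chains, the essential chains and the heavy chains.

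Myl4 (chr11:104550663-104595753, plus strand), the essential light chain of atrium and of embryonic muscle, was the lowest of the genes at 3.07 and 2.51 TPM (2.79 ± 0.396). It rested on 69 and 45 expected counts. Other markers of heart muscle were low too: Myl7, the atrial regulatory chain, Nppa, an atrial peptide hormone, and Tnni3, cardiac troponin I, were each below 1 TPM in both libraries, Tnnt2, cardiac troponin T, had 1.92 and 1.39 TPM, and Nppb, another cardiac peptide hormone, was listed at 0. Myh6, the atrial heavy chain, was the exception at 59.2 and 78.2 TPM in the first quantifier and 21.1 and 29.0 TPM in the second. It is a paralog of Myh7, and its level is given as uncertain; how reads were divided between the genes was not tested.

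Myl6 (chr10:128490860-128494145, minus strand), the essential chain of smooth muscle and non-muscle myosin, had 60.4 and 64.0 TPM (62.2 ± 2.50). Myl6b (chr10:128494157-128498685, minus strand) lies 11 bases upstream of Myl6 on the same strand, encodes a longer chain of 207 codons against 151, and had 4.36 and 4.79 TPM (4.58 ± 0.304). Myl6b was about as abundant in the second quantifier, at 4.46 and 4.52 TPM. The neighbours thus stood more than 10 times apart in level in each library. Of the stretches of 101 bases in Myl6 transcripts, 3.35% also occur in other annotated genes.

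Across the genes the order by mean was Mylpf, Myl1, Myl2, Myl3, Mylk2, Myl12a, Myl6, Myl9, Myl6b and Myl4. Of the 9 pairs of neighbours in that order, 2 had overlapping ranges. Myl2 and Myl3 overlapped, although Myl2 was the higher within each library. Myl3 and Mylk2 overlapped and changed places, with Mylk2 above Myl3 in library 1 and below it in library 2. In the second quantifier Mylk2 was below Myl3 in both libraries, at 239 against 252 TPM and 242 against 370 TPM. Every other pair kept its order in all 4 combinations of library and quantifier.

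Essential and regulatory chains bind the heavy chain in equal number, so their RNA can be compared. Summed over Myl1, Myl3 and Myl4, essential chains had 0.573 and 0.619 times the TPM of the regulatory chains Mylpf and Myl2. This ratio rested on how transcripts were counted. With protein-coding transcripts alone it was 0.799 and 0.860, and with counts not corrected for length 0.926 and 0.998. Relative to the summed TPM of the sarcomeric heavy chains, the essential chains stood at 0.481 and 0.539 and the regulatory chains at 0.839 and 0.871. These ratios rested on the counting too. With protein-coding transcripts alone the essential chains stood at 0.458 and 0.517 and the regulatory chains at 0.573 and 0.602. In the second quantifier the essential chains stood at 0.569 and 0.626 and the regulatory chains at 0.952 and 0.955. All of these are ratios of RNA, and protein was not measured.

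Mylk2 (chr2:152911352-152923068, plus strand), the kinase of skeletal muscle, had 273 and 270 TPM (271 ± 1.92), with 23646 and 20248 expected counts. It has 1 annotated transcript of 2951 bases, and ranked 160 in library 1 and 183 in library 2. There were 2.71 and 2.22 Mylk2 transcripts for each 100 of Mylpf by TPM. With protein-coding transcripts alone there were 3.97 and 3.23, and by counts per kb of the longest coding transcript 4.37 and 3.55. In the second quantifier Mylk2 had 239 and 242 TPM.

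Another kinase of the family was higher. Mylk4 had 592 and 778 TPM (685 ± 131) in the first quantifier and 524 and 695 TPM in the second, above Mylk2 in both libraries by both estimates. Mylk, the kinase of smooth muscle, had 7.88 and 7.33 TPM. Mylk3, the kinase of heart muscle, was below 1 TPM, at 0.610 and 0.560. Of 11 other kinases that can act on the regulatory chain, 9 reached 1 TPM in both libraries, among them Dapk3, a death-associated kinase, with 11.8 and 12.2 TPM.

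Phosphatase genes stood below Mylk2 in level. Of the calmodulin genes, Calm3 had 144 and 176 TPM, and Calm2 had 60.6 and 85.0 TPM, while the related Calml3 was below 1 TPM at 0.0500 and 0.190. Of 9 phosphatase genes, 8 reached 1 TPM in both libraries. The highest were the catalytic subunits Ppp1cb, with 175 and 207 TPM, Ppp1ca, with 87.2 and 94.4 TPM, and Ppp1cc, with 82.5 and 72.1 TPM. Among the other light chain genes, Myl10 and Myl7 were both below 1 TPM, Myl10 at 0.750 and 0.900 and Myl7 at 0.130 and 0.0800. The heavy chains of smooth muscle and non-muscle cells summed to 48.0 and 45.0 TPM, led by Myh14 with 21.8 and 18.4 TPM, Myh9 with 13.6 and 14.1 TPM and Myh11.

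**Figure D2:**
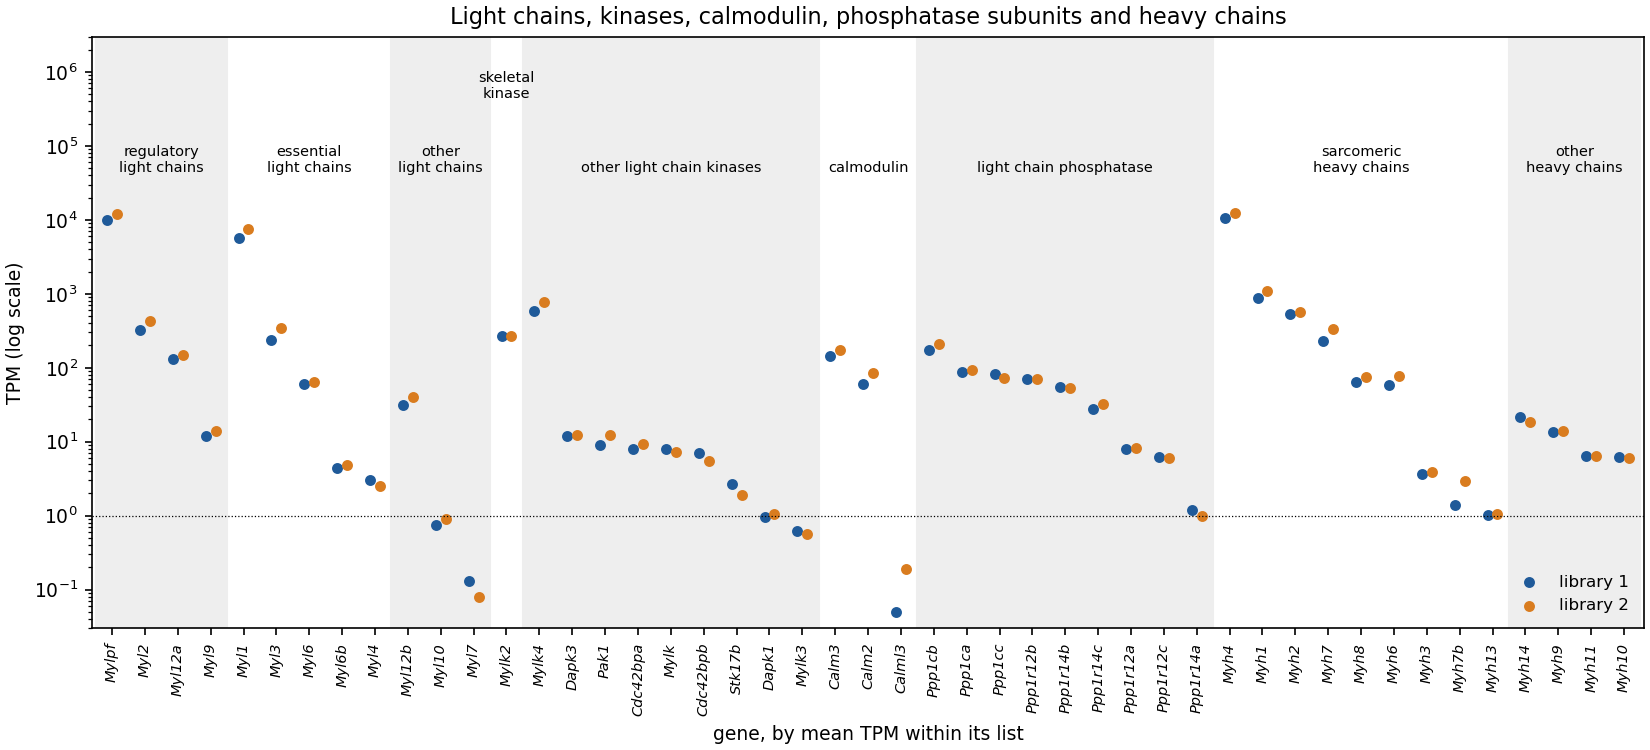
TPM of the first quantifier on a log axis (y) for light chains, kinases, calmodulin, phosphatase subunits and heavy chains (x, grouped by list and ordered by mean TPM), with blue for library 1 and orange for library 2; the dotted line is 1 TPM. Mylk4 stands above Mylk2, and Myl7, Myl10, Mylk3 and Calml3 stand below the line in both libraries.

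The quantifiers gave much the same gene levels but different transcripts. For 9 of the 10 genes the second over first ratio of gene TPM lay between 0.88 and 1.13, and Myl2 was the exception. Of 28 transcripts that held at least 5% of their gene's TPM in any library or quantifier, 9 had shares within 10 percentage points between quantifiers in both libraries, the limit used here to call a share settled, and 19 did not. The same main transcript led in both quantifiers and both libraries for 4 genes, Myl3, Myl6b, Myl9 and Mylk2. Myl3-201 held 98.8% and 99.7% in the first quantifier and 83.8% and 82.0% in the second. Myl9-201 held 100% in both libraries in the first quantifier and 84.1% and 93.7% in the second. Myl6b-201 held 99.1% and 98.3% in the first and 98.5% and 99.2% in the second.

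**Figure D3:**
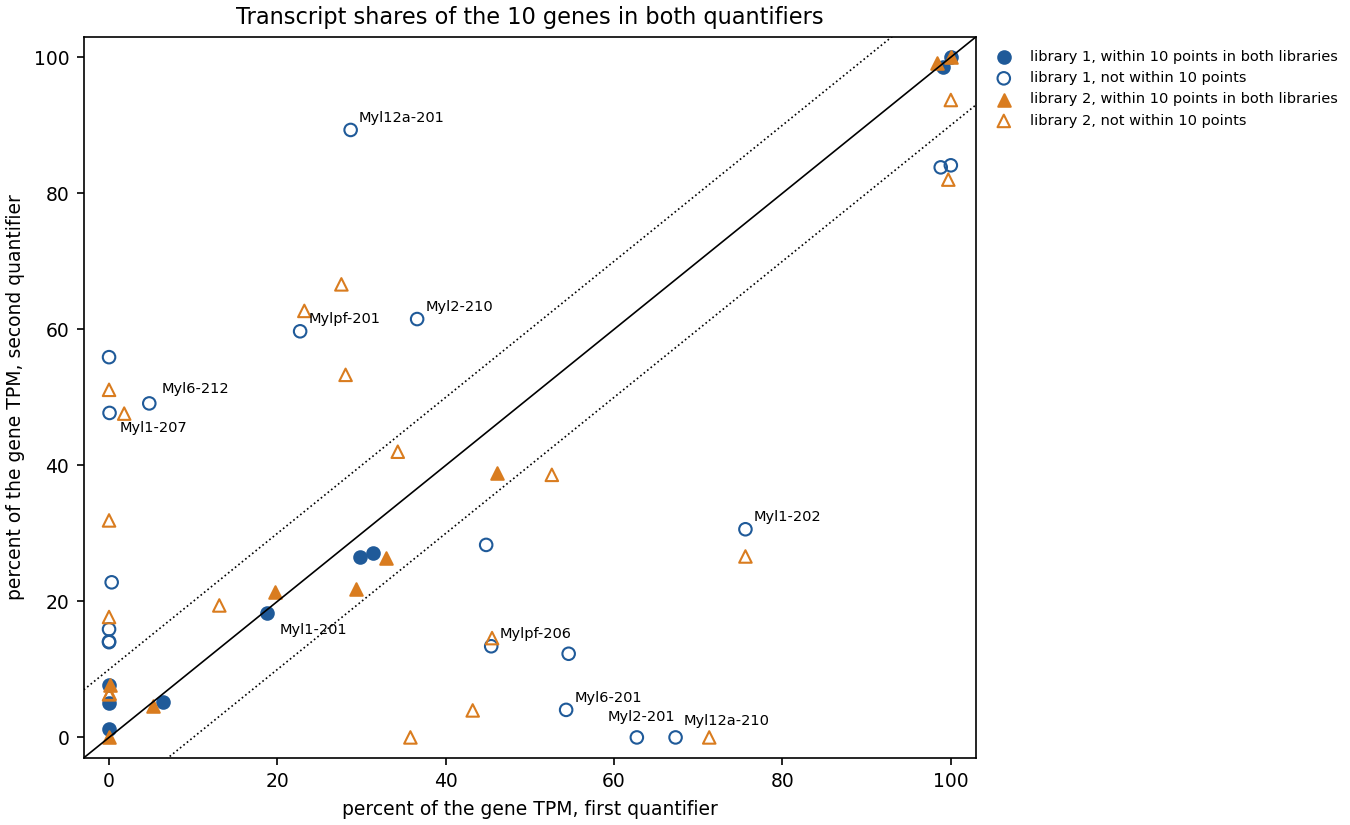
Share of its gene's TPM held by each of 28 transcripts in the first quantifier (x, percent) and the second (y, percent), with circles for library 1 and triangles for library 2; the solid line marks equal shares and the dotted lines 10 percentage points. Filled symbols, 9 transcripts, are within 10 points in both libraries, and Myl1-202, Myl1-207, Mylpf-201, Mylpf-206, Myl2-201 and Myl12a-210 are among those far from the line.

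For Myl1 the split by exons was settled although the transcript was not. Transcripts with the short-form exons held 77.1% and 77.2% of Myl1 TPM in the first quantifier (77.2 ± 0.0766%) and 78.7% and 77.9% in the second. Transcripts with the long-form exons held 19.0% and 19.8% in the first (19.4 ± 0.615%) and 21.3% and 22.1% in the second. Transcripts with short-form exons thus had 4.07 and 3.89 times the TPM of those with long-form exons in the first quantifier. In the second quantifier the ratios were 3.69 and 3.53. In counts, which are not corrected for length, the ratios were 2.89 and 2.76 in the first quantifier, from 93026 and 104968 expected counts against 32238 and 38025. The group with short-form exons also holds Myl1-207, with 276 annotated coding bases against 450 in Myl1-202, so it is not 1 coding form.

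Within the group with short-form exons the quantifiers parted. Myl1-202 held 75.6% in both libraries in the first quantifier and 30.6% and 26.6% in the second. Myl1-207, whose first exon at chr1:66935491-66935637 starts 283 bases upstream of that of Myl1-202 and whose annotated coding sequence has 276 bases, held 0.0596% and 0% in the first and 47.7% and 51.1% in the second. Myl1-201, the long form, was settled at 18.8% and 19.7% in the first and 18.3% and 21.4% in the second. The first quantifier's own error on the Myl1-201 count, a posterior SD of 302 and 338 reads, was small beside its 32090 and 37851 expected counts. For Myl1-202, on which the quantifiers parted, it was small too, at 291 and 315 reads beside 92356 and 104265. A small posterior SD thus does not show that a share is settled.

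**Figure D4:**
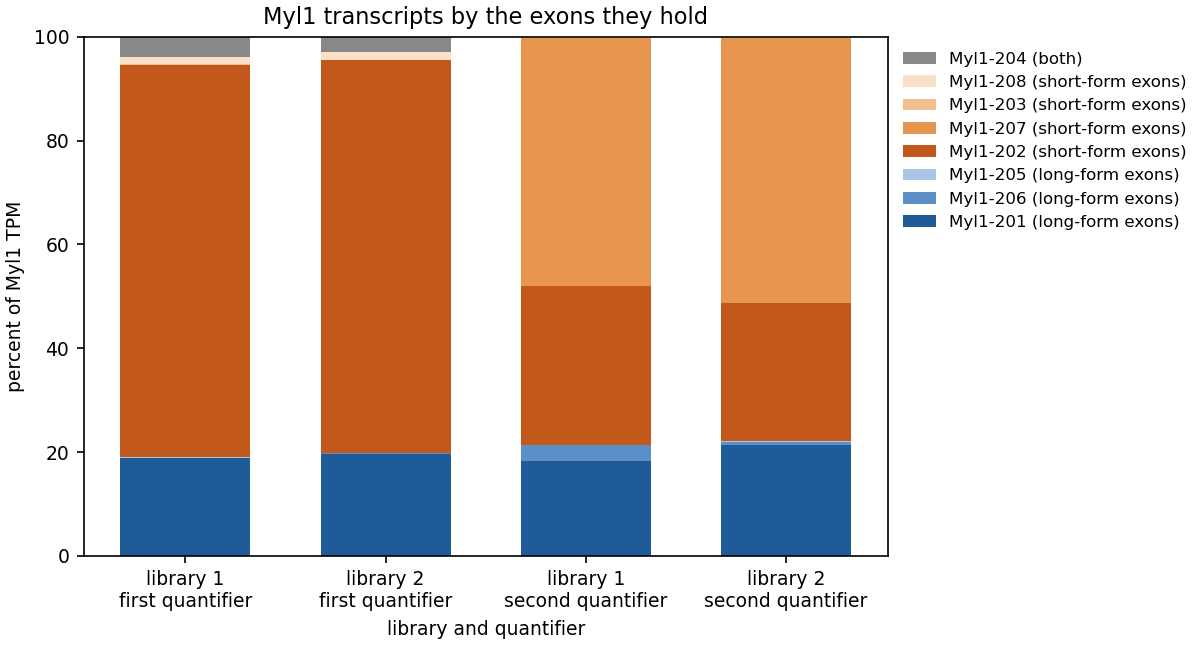
Percent of Myl1 TPM (y) held by each of 8 transcripts in each library and quantifier (x), with blue for transcripts with long-form exons, orange for those with short-form exons and grey for the transcript with both. The boundary between blue and orange lies between 19.0% and 22.1% in all 4 bars, while the division of orange between Myl1-202 and Myl1-207 differs between quantifiers.

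Mylpf showed a similar division that is not settled by its exons. Mylpf-201, which starts at chr7:127211608-127211763 and holds the printed start codon, had 22.7% and 23.2% of the TPM in the first quantifier and 59.7% and 62.7% in the second. Transcripts that start 2709 bases upstream, mainly Mylpf-206 with a coding sequence of 447 bases against 507, had 45.4% and 45.5% in the first and 13.9% and 15.4% in the second. Partial and intron-retaining transcripts, mainly Mylpf-203 of 285 bases, held 31.9% and 31.3% of Mylpf TPM in the first quantifier but 12.3% and 12.1% of its counts. In the second quantifier they held 26.5% and 21.8% of TPM and 5.58% and 4.69% of counts.

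Myl6 was settled in TPM shares for an internal exon and not for its transcripts. The 45-base exon at chr10:128491720-128491764 replaces the last 26 coding bases, in capitals here, by 26 others, and both forms have 151 codons (build mm10, minus strand, lower case shared).
Myl6-206, exon included: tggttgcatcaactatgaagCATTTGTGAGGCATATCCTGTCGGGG
Myl6-201, exon skipped: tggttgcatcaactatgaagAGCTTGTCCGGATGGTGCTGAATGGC
The form with the exon held 31.4% and 46.1% of Myl6 TPM in the first quantifier and 27.1% and 38.9% in the second. Of Myl6 counts it held 27.7% and 41.6% in the first and 21.4% and 31.5% in the second. By counts, library 2 was thus past the limit of 10 points. Transcripts that join the flanking exons directly held 59.4% and 45.0% in the first and 61.6% and 51.6% in the second. The share with the exon was higher in library 2 by both estimates, and it rested on 341 and 459 expected counts. Among skipping transcripts the quantifiers parted, with Myl6-201 at 54.3% and 43.2% in the first and 4.05% and 3.97% in the second, and the intron-retaining Myl6-212 at 4.78% and 1.80% in the first and 49.1% and 47.6% in the second.

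For Myl12a, transcripts that share the full coding sequence held 98.8% and 99.2% of TPM in the first quantifier and 98.0% and 97.4% in the second, so its coding sequence was settled. Which transcript carried it was not, with Myl12a-210 at 67.3% and 35.8% in the first quantifier and 0% in both libraries in the second. Myl4 transcripts with the full coding sequence held 54.6% and 47.4% in the first and 68.2% and 61.4% in the second, and its intron-retaining Myl4-204 held 44.8% and 52.6% in the first and 28.3% and 38.6% in the second.

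Between the libraries, none of the 8 light chain and kinase genes that passed the filter was 1.5-fold apart. Of these 8, 6 differed beyond counting error, beside 36.2% of all genes. Expected counts were put on 1 scale with TMM factors (trimmed mean of M values) over all genes, and each log2 ratio of library 1 over library 2 has an exact binomial 95% interval that covers counting error only. Of the 10 genes, 8 passed the filter of a mean of at least 5 TPM and a summed count of at least 100, and Myl4 and Myl6b did not. None of the 8 was 2-fold apart, beside 33 of 6685 genes (0.494%), and none was 1.5-fold apart, beside 2.29% of all genes. No replicated test exists in this design.

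In library 2, 4 of the 8 were higher beyond counting error, Mylpf, Myl1, Myl2 and Myl3, beside 19.3% of all genes. Their log2 ratios of library 1 over library 2 were -0.11 for Mylpf (-0.12 to -0.10), -0.22 for Myl1 (-0.23 to -0.21), -0.29 for Myl2 (-0.35 to -0.23) and -0.34 for Myl3 (-0.39 to -0.29). These are all 4 abundant sarcomeric light chains, and the slow genes were farther apart between libraries than the fast gene of their kind. Myh7 differed by -0.33 (-0.35 to -0.30) and Myh4 by -0.04 (-0.05 to -0.04) on the same scale, so the slow heavy chain lay beside the slow light chains.

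Library 1 was the higher for 2 of the 8, Mylk2 and Myl6, beside 16.8% of all genes. Mylk2 had a log2 ratio of library 1 over library 2 of 0.18 (0.16 to 0.21) and Myl6 of 0.12 (0.0028 to 0.24). Mylk4 differed the other way from Mylk2, at -0.21 (-0.22 to -0.19). Counting intervals left out 0 for 6 of the 8 genes in either direction, beside 36.2% of all genes, and since these intervals narrow with counts, abundant genes pass more readily. Myl9 and Myl12a had intervals that held 0, at -0.04 (-0.25 to 0.17) and -0.03 (-0.10 to 0.04). The median of the 8 was -0.074 and the median absolute ratio 0.15, beside -0.009 and 0.09 over all genes tested.

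The scale bears on these signs. Ratios of deposited TPM have a median of -0.173 over all genes, and on that scale Mylk2 stood at 0.01 (-0.01 to 0.04) and Myl6 at -0.08 (-0.20 to 0.04), so neither interval left out 0. With second quantifier counts under TMM, Myl6 stood at 0.04 (-0.07 to 0.15) and its interval again held 0. Both deposited-TPM ratios were still above that median over all genes. The 4 sarcomeric light chains were higher in library 2 under all 5 scalings, and Myl9 and Myl12a changed sign with spike-in scaling, to 0.03 and 0.04. With deposited TPM, Myl12a stood at -0.21 (-0.28 to -0.15), an interval without 0, beside the median of -0.173 over all genes. Of 8 phosphatase genes that passed the filter, 4 were higher in library 1 beyond counting error under TMM, beside 16.8% of all genes, and 1 in library 2, beside 19.3%.

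**Figure D5:**
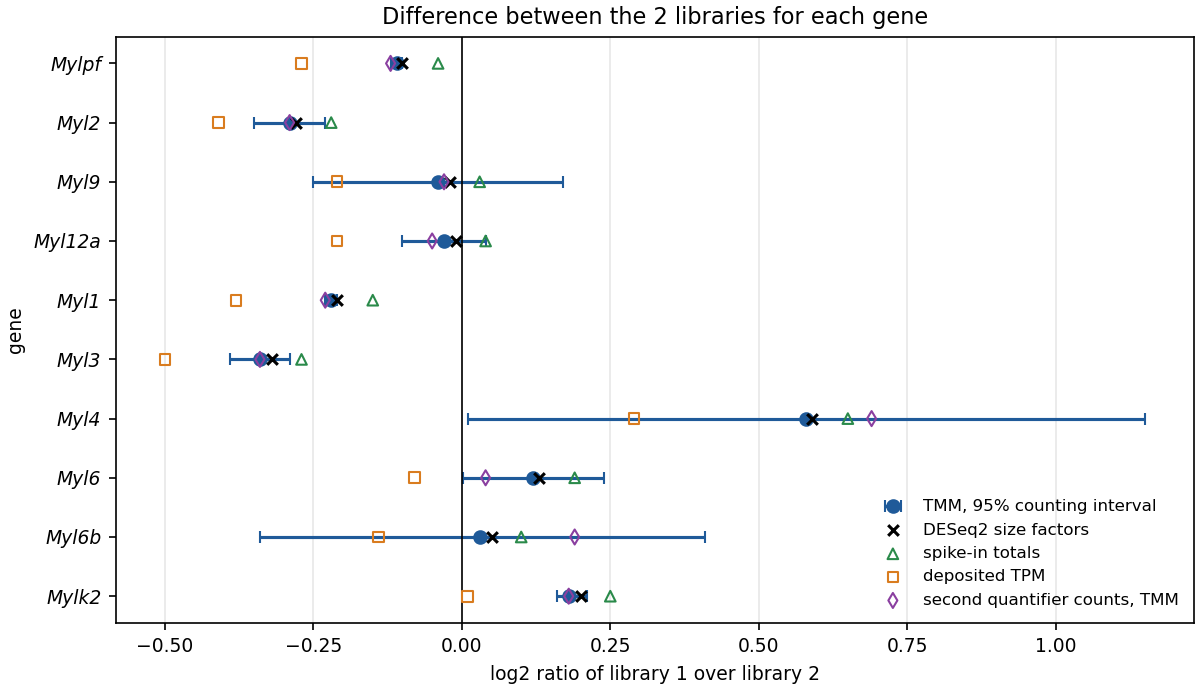
Log2 ratio of library 1 over library 2 (x) for each gene (y); filled circles with bars are TMM-scaled expected counts with 95% counting intervals, and the other symbols are other scalings. Mylpf, Myl2, Myl1 and Myl3 lie left of 0 under every scaling, and Myl6 lies at 0.12 under TMM and at -0.08 with deposited TPM.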

How the data were processed

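Total RNA-seq of 2 gastrocnemius libraries of 1 group was analysed. Expected counts and TPM per gene and transcript were deposited by the authors in tables whose columns are those RSEM writes (the first quantifier), and estimated counts and TPM per transcript in tables whose columns are those kallisto writes (the second), per the file headers. The posterior SD of counts (used as a score of count error) is a value deposited by the authors. Shares of gene TPM were computed here from the deposited TPM of each quantifier, and grouped shares are sums of these. For the first quantifier, transcript shares differed from the deposited percent by at most 0.147 percentage points. The software was not given in the sources used here. Per the deposited read-me, the build was mm10 with GENCODE M21, which gave symbols, exons, coding intervals and sequences. Reads of CAST alleles were quantified against mm10, and the effect on single genes was not tested.

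Libraries 1 and 2 summed to 35594289 and 34541905 expected counts, 0.479% and 0.505% of them from spike-ins. A count of 0 allows up to 3 counts, or 0.0847 and 0.0873 CPM, which like the intervals covers counting error only. Expected counts were rounded for TMM (edgeR 4.0.16), DESeq2 1.42.0 size factors and exact binomial 95% intervals (scipy 1.17.1). The ratio function was tested on simulated data. The libraries were not copies of each other: chi-square per degree of freedom was 18.6 over 15960 genes, and the common biological coefficient of variation 0.0942. With 2 libraries of 1 group no test was made, since the smallest p of a two-sided exact sign-flip test is p = 0.5.

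The genes, lists and thresholds were chosen with earlier results of these data known. The rule for names took all 10 genes, the 3 highest of each pathway or marker list, those below 1 TPM in both libraries, and transcripts with at least 5% of their gene. Of the skeletal fibre, endothelial, fibroblast and macrophage lists, Acta1 and sums are printed. Mylk, Myh7, Lmod1 and Myom1 were added after their values were seen. Some genes of the lists are not reported here. Where 2 identifiers share a symbol (Myl12b), they were summed. Of the listed light chain symbols, Myl5, Myl6l and Myl13 matched no annotated gene. In place of protein identity, coding bases were aligned globally with Biopython 1.88.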

Additional observations from a re-analysis of the deposited data

How the results depend on the processing

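No paired analysis was possible because both libraries belong to 1 group. With 2 libraries, leaving 1 out always moves a mean by less than 1 SD, so such values say nothing of stability. Of 232 other recomputed values, 117 were the same and 110 moved further. Same meant a move of less than 1 SD between libraries, a count within 1.5-fold, or a kept call on 0. Another 3 kept their sign but lost an interval without 0, and 1, Myl12a with deposited TPM, gained one. For 1 value whose main interval left out 0, the sign changed and the interval held 0. It was the log2 ratio of library 1 over library 2 of Myl6, at -0.08 (-0.20 to 0.04) with deposited TPM. Sign changes of ratios whose main interval held 0, such as Myl9 and Myl12a with spike-in scaling, counted as kept calls. The log2 ratio of Mylpf over Myl2, 4.90 in the report, was 4.02 with the second quantifier, 4.79 with CPM, 5.03 with coding transcripts of the second quantifier and 5.00 with counts per kb of the longest coding transcript. That of Myl1 over Myl3, 4.51, was 4.34 with CPM and 4.13 per kb. The essential over regulatory ratio, 0.596, was 0.962 with CPM, 0.829 and 0.848 with coding transcripts of the first and second quantifier, and 0.689 per kb. The share of Myl1 with short-form exons, 77.2%, was 78.3% with the second quantifier and 72.2% in counts. The share with long-form exons, 19.4%, was 21.7% and 25.6%. Myl1-201, 19.2%, was 25.5% in counts, and Myl1-202, 75.6%, was 28.6% with the second quantifier and 71.7% in counts. Genes 2-fold apart numbered 33 of 6685, 153 at 1.5-fold, and 6158 of 22490 with no filter beyond a summed count of 1. No light chain gene or Mylk2 was 2-fold apart under any scaling. Coding-only, per-kb and exon-grouped values were added after seeing the data. The ratio between libraries cannot leave out a library. The cause of these differences was not tested. Low counts limit Myl4, with 69 and 45, and Myl6b, with 123 and 117.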
